A study of Homo sapiens with 2 samples.

Results

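IRX1-high cardiomyocytes are 1381 cells of a pool of 24038 barcodes, taken from human cardiomyocytes made from the H9 embryonic stem cell line. They were chosen by their UMIs (unique molecular identifiers, which count captured RNA molecules). A cell entered when it had at least 2 UMIs of IRX1 and 0 of NR2F2, fewer than 10 UMIs summed over the 5 mitotic genes UBE2C, TOP2A, CDK1, AURKB and CCNB2, and at least 20000 CPM (a gene's UMIs scaled to a common total of all gene UMIs) summed over 12 cardiomyocyte genes such as TNNT2, TTN and MYL7. They are 6.39% of the 21623 barcodes past the filters (95% exact binomial interval 6.06 to 6.72) and 8.15% of the 16935 non-cycling cardiomyocytes (7.75 to 8.58). The cells they are set against are the 10075 non-cycling cardiomyocytes with IRX1 at 0 and NR2F2 at 0, called IRX1 0 cells here. Because IRX1 and NR2F2 chose the members, their own values are a description only.

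Every cell of both groups was at day 15 of differentiation, carried the gCaMP6f fluorescent calcium reporter and had been frozen and thawed into medium with serum and the ROCK inhibitor Y-27632. Separate thawed samples were stained with hashtag antibodies, pooled and captured together, and the gene library and the hashtag library came from that 1 pool. The labels do not say what each of the 13 hashtags marks, so hashtags are given as separate values and not as conditions. Hashtags with no label are not replicates of a named group, so no test was made: intervals cover counting error only, and a gene was called higher or lower when its CPM ratio was 1.5 or more in either direction.

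Iroquois genes (IRX1 to IRX6) encode homeodomain transcription factors that lie in a pair of gene clusters and pattern many tissues of the embryo. In the mouse heart, Irx4 is known for the ventricular chambers, Irx3 for the ventricular conduction system, and Irx1 and Irx2 for the interventricular septum. TBX3, a T-box repressor, is known for keeping the conduction system and the atrioventricular canal from taking on a working-chamber programme, and NR2F2 for atrial identity.

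IRX1 (chromosome 5, 3596054 to 3601403, plus strand, GENCODE 29 on GRCh38) is a neighbour of IRX2 (chromosome 5, 2745845 to 2751662, minus strand), with 844 kb between their starts, and of IRX4 (chromosome 5, 1877413 to 1887236, minus strand), at 1709 kb. C5orf38 starts 469 bases from the start of IRX2 on the opposite strand. IRX3, IRX5 and IRX6 lie on chromosome 16. The promoters of IRX1 and IRX2 are shown because IRX1 chose the cells and IRX2 had the largest ratio among its relatives. Each is 300 bases around the start that RefSeq gives (GRCh38.p14, chr5:3595582-3595881 on the plus strand and chr5:2751628-2751927 on the minus strand), 5′ to 3′, and capitals mark the motif CACGTG. The RefSeq starts differ from the GENCODE 29 starts above, and the IRX1 window ends before the GENCODE 29 start of IRX1.
IRX1: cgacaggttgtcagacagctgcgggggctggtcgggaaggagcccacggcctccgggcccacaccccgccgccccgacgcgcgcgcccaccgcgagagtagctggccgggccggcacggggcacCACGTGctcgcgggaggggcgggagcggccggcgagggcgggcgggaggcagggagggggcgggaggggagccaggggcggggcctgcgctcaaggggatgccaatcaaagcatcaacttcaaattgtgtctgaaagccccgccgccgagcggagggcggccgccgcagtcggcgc
IRX2: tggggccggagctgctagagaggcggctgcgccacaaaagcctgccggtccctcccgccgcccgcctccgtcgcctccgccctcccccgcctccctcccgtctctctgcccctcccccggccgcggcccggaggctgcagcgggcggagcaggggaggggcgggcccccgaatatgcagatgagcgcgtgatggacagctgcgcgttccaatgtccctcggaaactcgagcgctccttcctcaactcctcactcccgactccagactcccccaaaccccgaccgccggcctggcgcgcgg
The motifs searched on both strands were the Iroquois-type site ACANNTGT, the T-box core AGGTGTGA and the E-box CACGTG. The search found CACGTG once in IRX1, from base 125, and no match in IRX2. Among 35116 RefSeq promoters of the same length, ACANNTGT was in 5.62%, AGGTGTGA in 0.98% and CACGTG in 7.26%. Both promoters were rich in G and C, at 76% for IRX1 and 73.3% for IRX2, against a median of 58.7% over all promoters.

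The members were spread unevenly over the hashtags. Their share of non-cycling cardiomyocytes was lowest in Hashtag15 at 0.964% and highest in Hashtag2 at 34.3%, with a median of 4.68% over the 13 hashtags. Hashtag2 (139 members), Hashtag1 (24.8%, 33 members) and Hashtag7 (16.6%, 187 members) stood above the other 10, of which the highest was Hashtag6 at 8.31%. These shares also count cells with NR2F2 UMIs, which the rule bars from membership. In Hashtag15 only 216 of the 934 non-cycling cardiomyocytes had NR2F2 at 0. Among cells with NR2F2 at 0, the share was lowest in Hashtag14 at 2.29% and highest in Hashtag2 at 37.3%, with 4.17% in Hashtag15. The 755 members without a single hashtag were 8.61% of the non-cycling cardiomyocytes without one. What sets these hashtags apart is not given by the labels, so the main genes are also described within the 8 hashtags that held 20 or more members.

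**Figure D1:**
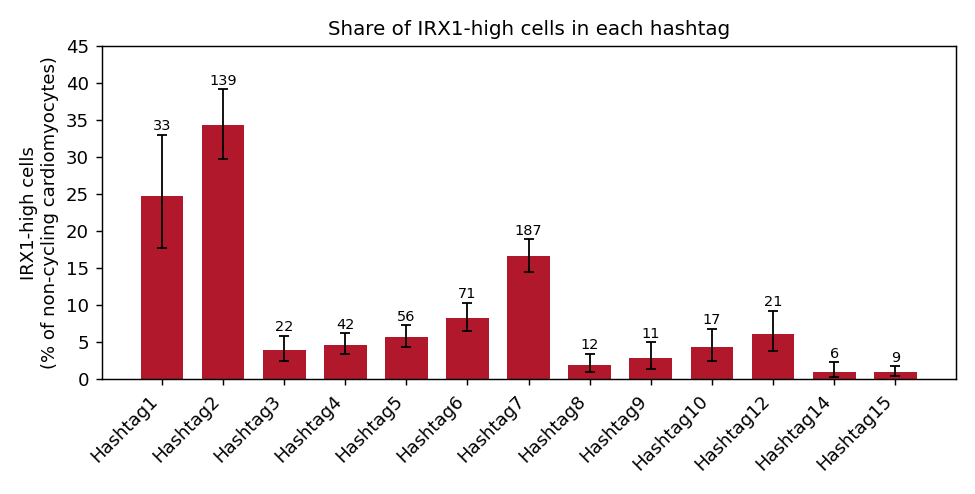
Share of IRX1-high cells among the non-cycling cardiomyocytes of each of the 13 hashtags, in percent. Cells with NR2F2 UMIs, which cannot be members, are counted in the denominators. Bars are shares, lines are 95% exact binomial intervals and the number over each bar counts its IRX1-high cells. Hashtag1, Hashtag2 and Hashtag7 reach 24.8%, 34.3% and 16.6%, and the other hashtags lie between 0.964% and 8.31%.

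IRX1-high and IRX1 0 cells were close in the measures that the filters and the rule used. Both groups had to pass the same limits on these measures, so the values describe the groups and are no separate evidence of a shared identity. The median was 12152 gene UMIs in IRX1-high cells (quartiles 9417 and 16648) and 11997 in IRX1 0 cells (6804 and 16600), so the lower quartile was deeper among IRX1-high cells. The median numbers of genes were 3545 in IRX1-high cells and 3363 in IRX1 0 cells, and the median mitochondrial shares were 2.57% in IRX1-high cells and 3.10% in IRX1 0 cells. The 12 cardiomyocyte genes summed to 42315 CPM in IRX1-high cells and 42547 CPM in IRX1 0 cells. Among them TNNT2, the cardiac troponin T, was at 8276 CPM in IRX1-high cells and 7467 CPM in IRX1 0 cells.

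The summed markers of each other cell type differed by less than 1.5-fold between the groups. Summed marker levels were 81.2 CPM in IRX1-high cells and 68.4 CPM in IRX1 0 cells for stromal cells, and 46.7 CPM in IRX1-high cells and 39.5 CPM in IRX1 0 cells for endothelial cells. IRX1-high cells had 235 CPM of epicardial markers, 1033 CPM of smooth muscle and pericyte markers and 947 CPM of epithelial markers, against 288, 1173 and 1096 CPM in IRX1 0 cells. Endoderm markers summed to 60.0 CPM in IRX1-high cells and 76.1 CPM in IRX1 0 cells, neural markers to 4.91 CPM in IRX1-high cells and 4.68 CPM in IRX1 0 cells, and pluripotency markers to 8.40 CPM in IRX1-high cells and 12.0 CPM in IRX1 0 cells. The endothelial genes PECAM1 and CLDN5 and the neural genes PAX6, SOX10, ELAVL4 and NEUROD1 were among those at 0 UMIs in the IRX1-high cells. SERPINA1, a liver-type gene at 6.24 CPM in IRX1-high cells and 10.8 CPM in IRX1 0 cells, was past the 1.5 ratio. It was measured only through its level in IRX1 0 cells. Within the 8 hashtags it was higher in 4 and lower in 4, with a median ratio of 1.00. The other members that could be measured were within the 1.5 ratio, but most members were too low to be measured. In all, 4 of 10 epithelial, 2 of 10 stromal, 1 of 10 endothelial and 0 of 10 neural markers reached 10 CPM in either group. Scrublet marked 155 of the IRX1-high cells (11.2%) and 876 of the IRX1 0 cells (8.70%) as doublets. These cells stayed in, and leaving them out of both sides gave 186 higher and 127 lower genes, beside the 160 and 92 below.

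Of 8375 genes measured outside the selection rule, 160 were higher in IRX1-high cells (1.91% of those tested) and 92 were lower (1.1%). A gene was measured when its higher side had at least 10 CPM and 10 UMIs. The median ratio over all 8375 genes was 1.02, which is the level each list is read against. Over the 8 hashtags, 83 of the 160 higher genes were higher in every hashtag, where 3.71% of all measured genes were. Of the 92 lower genes, 46 were lower in every hashtag, where 2.17% of all measured genes were. The calls were made on pooled sums that hold the cells of these hashtags. Called genes are thus bound to keep their direction more often, and both counts are a description only.

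IRX2, the nearest Iroquois neighbour of IRX1 on chromosome 5, had a larger ratio than any other Iroquois gene measured outside the rule. Over the 8 hashtags IRX2 had 110 CPM at the lowest, 196 at the median and 354 at the highest in IRX1-high cells, against 37.8, 47.9 and 95.1 CPM in IRX1 0 cells. The ranges did not overlap, and IRX2 was higher in IRX1-high cells in all 8 hashtags, as were 3.71% of all measured genes. The share of all measured genes whose ranges stay apart was not counted. Summed over the pool, IRX2 was at 188 CPM in IRX1-high cells and 47.8 CPM in IRX1 0 cells, a ratio of 3.94 (3.79 to 4.11). C5orf38, which shares the start region of IRX2, was at 134 CPM in IRX1-high cells and 43.5 CPM in IRX1 0 cells, a ratio of 3.08 (2.94 to 3.22), and its hashtag values, 101 to 214 CPM in IRX1-high cells against 34.5 to 82.8 CPM in IRX1 0 cells, did not overlap either. The files used here do not say how reads were assigned to strands where these neighbouring genes meet.

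Cells with an IRX2 UMI were 83.0% of the IRX1-high cells and 33.7% of the IRX1 0 cells. With every cell thinned to 5000 UMIs and shallower cells left out (27 IRX1-high and 1909 IRX1 0 cells), the shares were 57.8% in IRX1-high cells (55.1 to 60.5) and 19.2% in IRX1 0 cells (18.4 to 20.1). Among other cells of the pool, 14.4% of thinned EPCAM-chosen cells (12.2 to 16.8) and 7.26% of thinned NR2F2-chosen cardiomyocytes (6.11 to 8.54) had an IRX2 UMI. EPCAM-chosen cells are 984 cells below the cardiomyocyte sum with at least 2 UMIs of the epithelial gene EPCAM, at a median depth of 14734 UMIs. NR2F2-chosen cells are 1958 non-cycling cardiomyocytes with at least 2 NR2F2 UMIs and IRX1 at 0, at a median of 10378 UMIs. IRX2 detection was thus higher in IRX1-high cells than in all 3 of the other groups, and IRX1 0 cells were above both EPCAM-chosen and NR2F2-chosen cells.

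The other Iroquois genes did not move as a block. IRX3 was at 63.1 CPM in IRX1-high cells and 29.7 CPM in IRX1 0 cells, a ratio of 2.12 (1.99 to 2.26), and higher in all 8 hashtags, though the hashtag ranges of 23.7 to 95.2 CPM in IRX1-high cells and 14.3 to 72.2 CPM in IRX1 0 cells overlapped. IRX4, the ventricular member, was at 123 CPM in IRX1-high cells and 122 CPM in IRX1 0 cells, a ratio of 1.01 (0.97 to 1.05), and was higher in 4 of 8 hashtags. IRX5 stayed under the 10 CPM floor at 9.92 CPM in IRX1-high cells and 3.66 CPM in IRX1 0 cells, and IRX6 was near 0 in both. Of the 3 Iroquois genes measured outside the rule, 2 were higher and 0 lower, beside 1.91% and 1.1% of all measured genes. Their median ratio was 2.12.

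For IRX2, IRX3 and TBX3 the members just inside the IRX1 threshold lay between their neighbours. The 636 cells with 2 IRX1 UMIs had 143 CPM of IRX2, against 99.7 CPM in the 1514 cells with 1 IRX1 UMI, which are outside. From 0 through 1, 2, 3 and 4 or more IRX1 UMIs, IRX2 stood at 47.8, 99.7, 143, 191 and 255 CPM. IRX3 stood at 29.7, 39.4, 55.0, 63.3 and 75.4 CPM and TBX3 at 26.7, 30.5, 36.7, 42.0 and 48.5 CPM over the same bins. HAND1 went the other way, at 147, 106, 84.1, 85.0 and 70.7 CPM. IRX4 was flat over the bins, between 122 and 127 CPM.

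**Figure D2:**
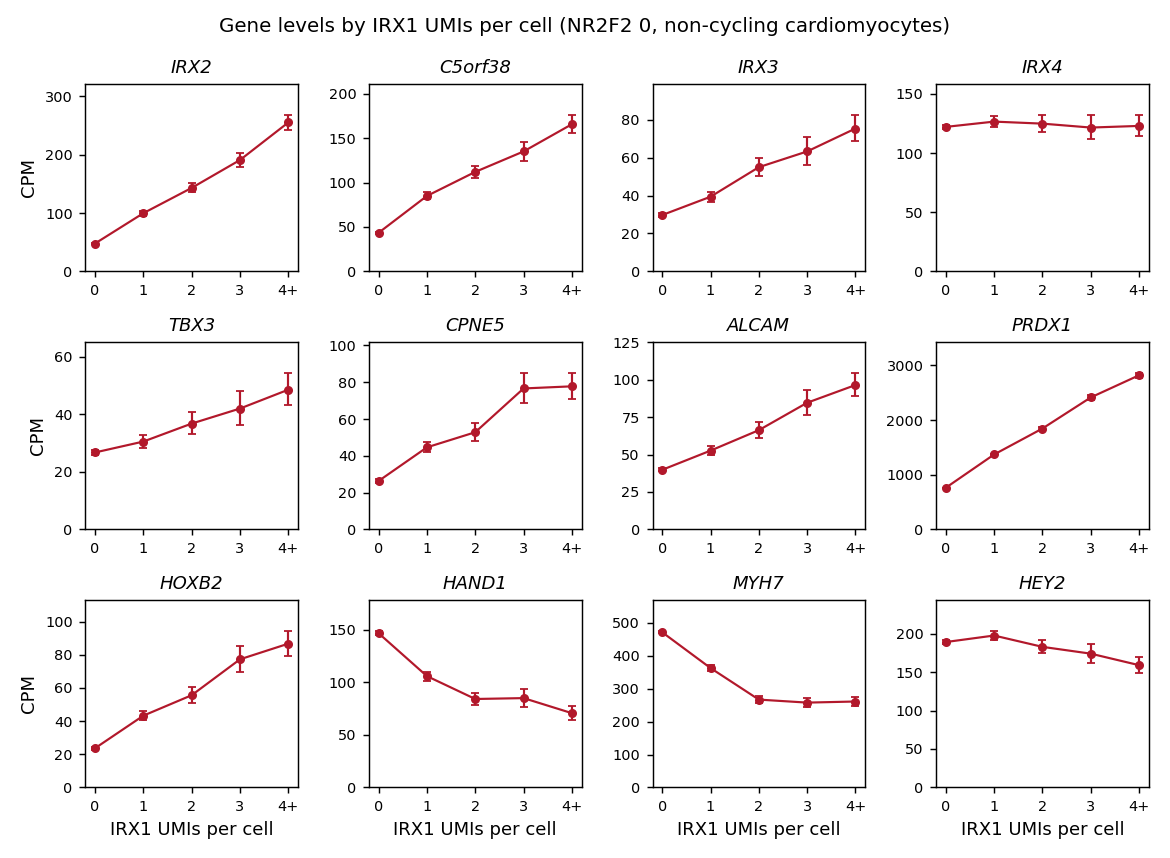
Levels of 12 genes in CPM (vertical axes from 0) by the number of IRX1 UMIs in a cell, from 0 to 4 or more, in non-cycling cardiomyocytes with NR2F2 at 0. Points are CPM of summed UMIs and lines 95% Poisson intervals. IRX2, PRDX1 and HOXB2 are higher in each bin than in the bin before it, IRX4 stays between 122 and 127 CPM, and HAND1 and MYH7 are lower from 1 IRX1 UMI on.

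The 6 markers that go with IRX1 in the label were all higher in IRX1-high cells, a result that the choice of these markers on the same data already holds. CPNE5, a copine that binds membranes in the presence of calcium, was at 66.0 CPM in IRX1-high cells and 26.3 CPM in IRX1 0 cells, a ratio of 2.51 (2.35 to 2.67), and higher in all 8 hashtags. ALCAM, the adhesion protein CD166 found on early cardiomyocytes, was at 79.7 CPM in IRX1-high cells and 39.8 CPM in IRX1 0 cells, a ratio of 2.00, also in all 8. KCNJ3, a subunit of the acetylcholine-gated potassium channel, was at 10.8 CPM in IRX1-high cells and 3.65 CPM in IRX1 0 cells, a ratio of 2.96 (2.51 to 3.49), but the ratio ran from 0.29 to 4.54 over the hashtags. ABAT, the enzyme that breaks down GABA, and SORCS1, a sorting receptor, had ratios of 1.91 and 1.80 and were each higher in 7 of 8 hashtags. The median over the 6 was 1.96, against 1.02 for all genes.

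TBX3 had the lowest pooled ratio of the 6, while within hashtags the median ratio was 1.68 for TBX3 and lower for SORCS1, at 1.37. Over the 8 hashtags it had 28.3 CPM at the lowest, 49.5 at the median and 72.6 at the highest in IRX1-high cells, against 9.45, 28.2 and 44.5 CPM in IRX1 0 cells. It was higher in 7 hashtags, with a ratio from 0.90 to 5.44, and the ranges overlapped. Over the pool TBX3 was at 41.5 CPM in IRX1-high cells and 26.7 CPM in IRX1 0 cells, a ratio of 1.56 (1.44 to 1.68). The ratio was 1.41 without Hashtag1, Hashtag2 and Hashtag7, 1.34 with IRX1 at 1 UMI or more, and 1.22 when NR2F2 was not used, all under 1.5. TBX3 RNA was not particular to cardiomyocytes in this pool: 17.5% of thinned IRX1-high cells and 11.5% of thinned IRX1 0 cells had a TBX3 UMI, against 33.9% of thinned EPCAM-chosen cells. Detection was 21.7% in thinned NR2F2-chosen cells and 8.92% (8.12 to 9.78) in the thinned HEY2-chosen cells, which are IRX1 0 cells with at least 2 UMIs of HEY2, so IRX1-high cells (15.5 to 19.6) were above the lowest of these groups. The part of free RNA in these shares was not tested.

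Single cells seldom carried the markers together. After thinning to 5000 UMIs, at least 1 of the 6 markers was detected in 69.0% of IRX1-high cells and 45.6% of IRX1 0 cells. At least 2 were detected in 35.0% of IRX1-high cells and 13.1% of IRX1 0 cells, and at least 3 in 12.8% of IRX1-high cells and 2.87% of IRX1 0 cells. No thinned cell of either group held all 6. The markers were chosen on these same data, so the higher shares in IRX1-high cells are a description only. At this depth few single cells showed several of the markers.

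**Figure D3:**
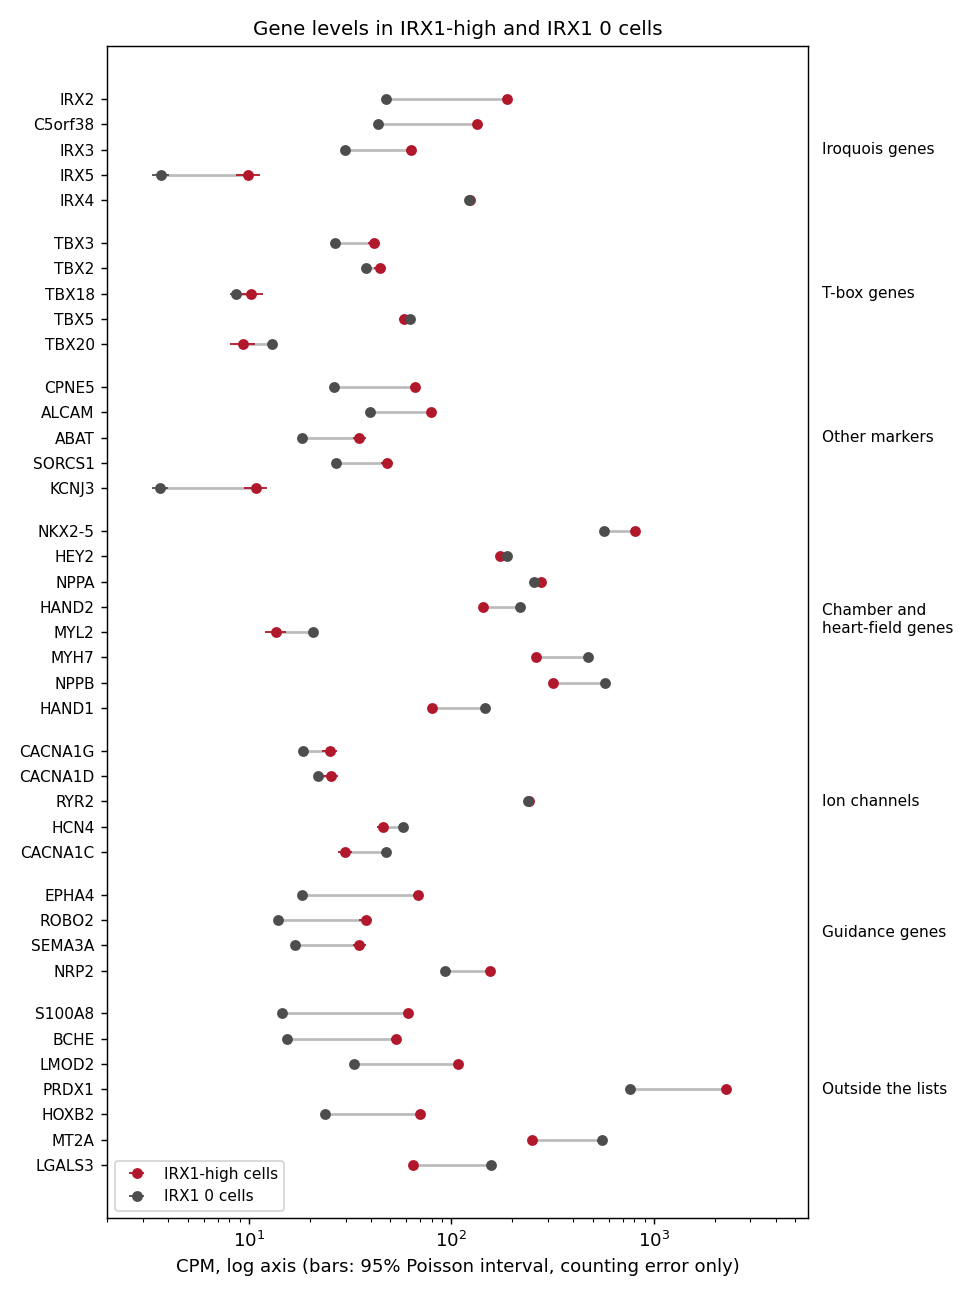
Levels of 39 genes in CPM (log axis) in IRX1-high cells (red) and IRX1 0 cells (grey), grouped by role, with 95% Poisson intervals as horizontal lines. IRX2, C5orf38, EPHA4, BCHE, LMOD2 and PRDX1 have ratios from 2.99 to 3.94, and HAND1, MYH7, NPPB, MT2A and LGALS3 are lower in IRX1-high cells.

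Beyond TBX3, the conduction and T-box lists showed partial differences. Of 15 measured genes of the conduction system and atrioventricular canal list, 5 were higher and 0 lower (TBX3, MSX2, CPNE5 and KCNJ3 among them), beside 1.91% higher and 1.1% lower of all measured genes, with a median ratio of 1.24 against 1.02 for all genes. TBX3, CPNE5 and KCNJ3 are also label markers, so they add nothing independent, and KCNJ3 was measured only through its 10.8 CPM in IRX1-high cells. MSX2, a homeobox target of BMP signalling, was at 40.6 CPM in IRX1-high cells and 25.7 CPM in IRX1 0 cells, a ratio of 1.58, but was higher in only 5 of 8 hashtags and had a ratio of 1.30 without Hashtag1, Hashtag2 and Hashtag7. The T-box repressor TBX2 had a ratio of 1.18, TBX5 0.93, TBX18 1.19 and TBX20 0.72, none past the threshold.

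Of the 12 genes of the sinus node list 4 were measured, of which 1 (TBX3) was higher and 0 lower. Of all measured genes, 1.91% were higher and 1.1% lower, and TBX3 is a label marker chosen on these same data. HCN4, the main pacemaker channel, was at 45.8 CPM in IRX1-high cells and 57.6 CPM in IRX1 0 cells, a ratio of 0.79 (0.74 to 0.85). SHOX2, a sinus node factor, was at 0.196 CPM in IRX1-high cells and 0.795 CPM in IRX1 0 cells, under the floor in both. The calcium channel genes CACNA1D and CACNA1G had ratios of 1.16 and 1.36, within the threshold, and CACNA1G was higher in all 8 hashtags. Against HEY2-chosen cells alone their ratios were 1.72 and 1.57, each at a higher level in IRX1-high cells. Against NR2F2-chosen cells, CACNA1D was lower in IRX1-high cells, at 25.3 CPM against 68.3 CPM (ratio 0.37). CACNA1G was at 25.1 CPM in IRX1-high cells and 24.4 CPM in NR2F2-chosen cells (ratio 1.03).

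Ventricular genes were mixed. Of 12 measured, 0 were higher and 3 lower (MYH7, MYL2 and HAND1), beside 1.91% and 1.1% of all measured genes, with a median ratio of 0.92. HEY2, a factor of the ventricular compact wall, was at 173 CPM in IRX1-high cells and 189 CPM in IRX1 0 cells, a ratio of 0.92 (0.89 to 0.95), and 48.0% of thinned IRX1-high cells and 50.9% of thinned IRX1 0 cells had a HEY2 UMI, against 8.71% of EPCAM-chosen cells. MYH7, the slow myosin heavy chain, was at 263 CPM in IRX1-high cells and 471 CPM in IRX1 0 cells, which is 1.79-fold lower (ratio 0.56), though in Hashtag1 it was higher. MYL2, the ventricular light chain, was at 13.6 CPM in IRX1-high cells and 20.8 CPM in IRX1 0 cells, 1.53-fold lower, and lower in 6 of the 8 hashtags. MYH6, the atrial-type myosin heavy chain, had a ratio of 1.12, TNNI3, the troponin I of mature cardiomyocytes, 0.99 and RYR2, the calcium release channel, 1.01.

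HAND1 and HAND2, basic helix-loop-helix factors of the heart fields, were both lower. Over the 8 hashtags HAND1 had 29.7 CPM at the lowest, 87.3 at the median and 104 at the highest in IRX1-high cells, against 64.1, 145 and 191 CPM in IRX1 0 cells. It was lower in all 8, and the ranges overlapped. Over the pool HAND1 was at 80.2 CPM in IRX1-high cells and 147 CPM in IRX1 0 cells, 1.83-fold lower, and 23.9% of thinned IRX1-high cells and 42.8% of thinned IRX1 0 cells had a HAND1 UMI, against 19.2% of EPCAM-chosen and 24.2% of NR2F2-chosen cells. HAND2 was at 143 CPM in IRX1-high cells and 219 CPM in IRX1 0 cells, 1.53-fold lower and lower in all 8 hashtags, with 1.47-fold when the IRX1 0 cells were weighted to the hashtags and depth of the IRX1-high cells. NKX2-5, a core cardiac factor, was higher by less than the threshold, at 808 CPM in IRX1-high cells and 569 CPM in IRX1 0 cells (ratio 1.42, higher in all 8 hashtags).

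The natriuretic peptides parted. NPPB was at 317 CPM in IRX1-high cells and 572 CPM in IRX1 0 cells, 1.80-fold lower and lower in all 8 hashtags. The shares of cells with an NPPB UMI were 38.5% in IRX1-high cells and 39.0% in IRX1 0 cells, close to each other, and after thinning 23.5% in IRX1-high cells and 27.7% in IRX1 0 cells. Against HEY2-chosen cells, at 295 CPM, the NPPB ratio was 1.08. NPPA was at 277 CPM in IRX1-high cells and 256 CPM in IRX1 0 cells, a ratio of 1.08 in summed UMIs. Its detection differed more: 41.3% of thinned IRX1-high cells (38.6 to 44.0) and 27.8% of thinned IRX1 0 cells (26.9 to 28.8) had an NPPA UMI, and the upper quartile per cell was 267 CPM in IRX1-high cells and 119 CPM in IRX1 0 cells. Of 9 measured trabecular genes 3 were higher (IRX3 and SEMA3A among them) and 2 lower (NPPB and SLIT3), beside 1.91% and 1.1% of all measured genes, with a median ratio of 1.08. CACNA1C, the main L-type calcium channel of working myocardium, was at 29.8 CPM in IRX1-high cells and 47.8 CPM in IRX1 0 cells, 1.61-fold lower and lower in all 8 hashtags. No gene was called among 15 measured for calcium handling, 11 for gap junctions and adhesion, 12 for oxidative and fatty acid metabolism, 17 for glycolysis and 13 for extracellular matrix.

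Of 20 measured guidance and adhesion genes, 7 were higher and 2 lower, beside 1.91% and 1.1% of all genes, with a median ratio of 1.21. EPHA4, an ephrin receptor, was at 68.0 CPM in IRX1-high cells and 18.3 CPM in IRX1 0 cells, a ratio of 3.71 (3.47 to 3.97), and higher in all 8 hashtags. ROBO2, a receptor of Slit proteins, had a ratio of 2.71 and SEMA3A, a secreted semaphorin, of 2.08, and both were higher in all 8 hashtags. The semaphorin co-receptor NRP2 was at 155 CPM in IRX1-high cells and 93.0 CPM in IRX1 0 cells, a ratio of 1.66. PLXNA2 had a ratio of 1.58. ALCAM and SORCS1 complete the 7, but they are label markers chosen on these same data and add nothing independent. SLIT3 and EFNA5, ligands of the same receptor families, were at 24.0 and 15.6 CPM in IRX1-high cells and at 37.3 and 26.3 CPM in IRX1 0 cells, with ratios of 0.64 and 0.59.

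PRDX1, a peroxiredoxin that removes hydrogen peroxide, was among the genes with the largest ratios outside the lists. Over the 8 hashtags it had 1181 CPM at the lowest, 1719 at the median and 3723 at the highest in IRX1-high cells, against 620, 738 and 1443 CPM in IRX1 0 cells. It was higher in all 8 hashtags, with ratios of 1.79 to 2.99, and the ranges overlapped. Over the pool PRDX1 was at 2274 CPM in IRX1-high cells and 761 CPM in IRX1 0 cells, a ratio of 2.99 (2.95 to 3.02). The other peroxiredoxins PRDX2 to PRDX6, checked after PRDX1 was seen, had ratios of 1.02 to 1.08. Per cell, PRDX1 had a median of 1634 CPM in IRX1-high cells (quartiles 747 and 4051) and 493 CPM in IRX1 0 cells (279 and 776), so the upper quartile of the IRX1-high cells lay far from its median.

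In Hashtag1, Hashtag2 and Hashtag7 the IRX1 0 cells also stood apart. Their PRDX1 levels were 1247, 1443 and 1310 CPM, against 620 to 804 CPM in the IRX1 0 cells of the other 5 hashtags. IRX2 was at 86.7, 87.8 and 95.1 CPM in the IRX1 0 cells of those hashtags and at 37.8 to 53.8 CPM in the others. These are the hashtags with the highest shares of IRX1-high cells. With IRX1 0 cells weighted to the hashtags and depth of the IRX1-high cells, the ratio was 3.39 for IRX2, 2.63 for PRDX1, 2.33 for CPNE5 and 1.53 for TBX3. Weighted to depth alone, the ratios were 3.88, 2.90, 2.53 and 1.56. The 755 IRX1-high cells without a single hashtag were weighted as a class of their own, so their hashtag make-up was not measured. Under the weighting to hashtags and depth 132 of the 160 higher and 71 of the 92 lower genes stayed past the threshold.

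**Figure D4:**
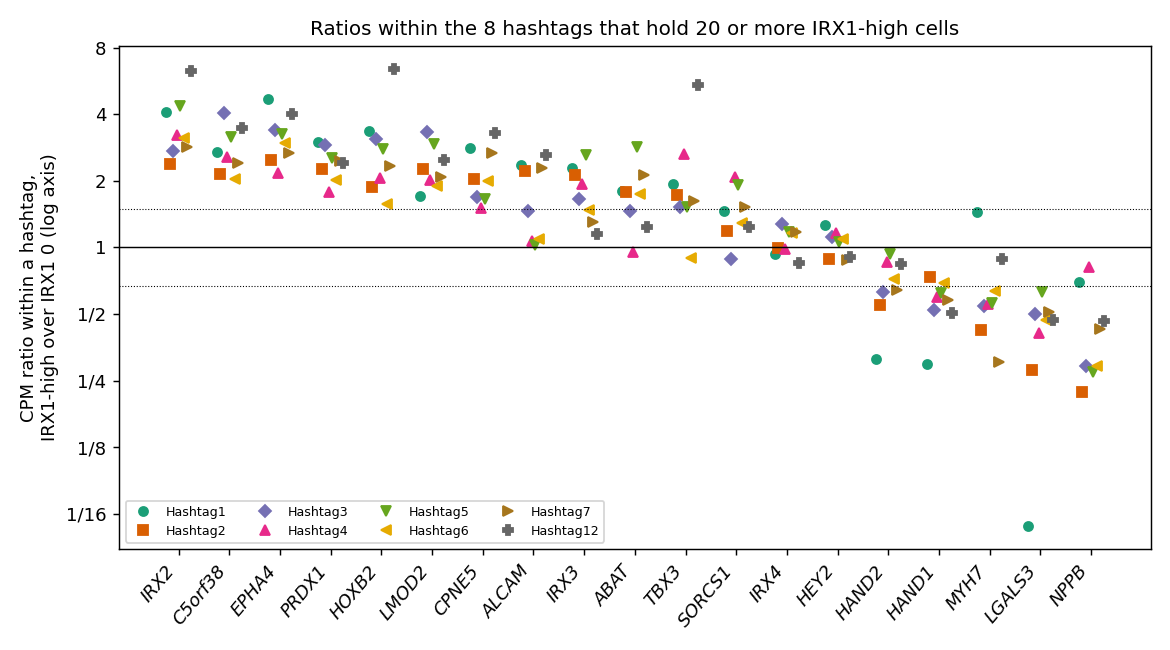
CPM ratio of IRX1-high over IRX1 0 cells (log axis) for 19 genes within each of the 8 hashtags with 20 or more IRX1-high cells. Symbols are hashtags, the solid line marks a ratio of 1 and the dotted lines 1.5 in either direction. IRX2, C5orf38, EPHA4 and PRDX1 lie above 1 in every hashtag, HAND1, HAND2, LGALS3 and NPPB below 1, and IRX4 and HEY2 on both sides.

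Genes outside the lists were ranked at 50 CPM or more, leaving out mitochondrially encoded, ribosomal protein, LINC-named, antisense and clone-named genes. Those with the largest ratios were S100A8, BCHE, LMOD2, C5orf38, PRDX1, HOXB2, BASP1, PDLIM3, C1QTNF4 and TSPAN15. S100A8, a calcium-binding protein best known from neutrophils, was at 61.3 CPM in IRX1-high cells and 14.7 CPM in IRX1 0 cells, a ratio of 4.18 (3.89 to 4.50), higher in 7 of 8 hashtags. BCHE, butyrylcholinesterase, had a ratio of 3.44, and LMOD2, a leiomodin that lengthens cardiac thin filaments, of 3.29, both higher in all 8 hashtags. Their median ratios within hashtags were lower, at 2.30 for BCHE and 2.18 for LMOD2. With IRX1 0 cells weighted to hashtags and depth, the ratios were 3.04 for BCHE and 2.61 for LMOD2. HOXB2, a homeobox factor, was at 70.1 CPM in IRX1-high cells and 23.6 CPM in IRX1 0 cells, a ratio of 2.97, and higher in all 8, though it overlaps the antisense gene HOXB-AS1 and strand use in counting is not stated. BASP1, PDLIM3, C1QTNF4 and TSPAN15 had ratios of 2.33 to 2.91.

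Among the genes lower in IRX1-high cells outside the lists, LGALS3, the sugar-binding galectin 3, was at 64.9 CPM in IRX1-high cells and 157 CPM in IRX1 0 cells, 2.42-fold lower and lower in all 8 hashtags. PCDH20, a protocadherin, INHBA, an activin subunit, FGF12, which binds sodium channels, and SYNE2, a nuclear envelope protein, were 2.09-, 1.95-, 2.17- and 1.84-fold lower, each in all 8 hashtags. Metallothioneins, which bind zinc and copper, were lower over the pool but not in every hashtag. MT2A was at 251 CPM in IRX1-high cells and 552 CPM in IRX1 0 cells, 2.20-fold lower, and higher in 2 of 8 hashtags. MT1X and MT1E, its close paralogs, were 1.95- and 2.21-fold lower, and reads shared between such paralogs may be split among them.

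Single genes of signalling lists were called with little company, where 1.91% of all measured genes were higher and 1.1% lower. ID4, an inhibitor of helix-loop-helix factors, was 1 of 13 measured BMP pathway genes called, at 216 CPM in IRX1-high cells and 88.3 CPM in IRX1 0 cells (ratio 2.44, higher in all 8 hashtags). JAG1, a Notch ligand, was 1 of 6, at 50.1 CPM in IRX1-high cells and 32.4 CPM in IRX1 0 cells (ratio 1.55). WNT2 was higher with a ratio of 1.86 and the Wnt receptor FZD1 lower with 0.51, the 2 called of 14 Wnt pathway genes. DHRS3, a retinaldehyde reductase, was 1 of 6 retinoic acid genes called, 2.04-fold lower. PBX3, a partner of homeobox factors, was at 129 CPM in IRX1-high cells and 69.5 CPM in IRX1 0 cells (ratio 1.86), while HAND1 and HAND2 were the lower ones among 18 core cardiac factors.

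Set against cells chosen by other factors, IRX1-high cells had the fewest genes past the threshold against the HEY2-chosen ones. That order rests partly on the rule, since IRX1-high and HEY2-chosen cells both have NR2F2 at 0. The 4781 HEY2-chosen cells have at least 2 UMIs of HEY2 with IRX1 and NR2F2 at 0, and are all among the IRX1 0 cells. IRX1-high cells had 258 of 8331 measured genes higher (3.1%) and 84 lower (1.01%) than HEY2-chosen cells. Against the 1958 NR2F2-chosen cells, 280 of 8665 genes were higher (3.23%) and 568 lower (6.56%), and against the 198 SHOX2-chosen cells, 569 of 8904 were higher (6.39%) and 1132 lower (12.7%). All 3 comparisons use the same IRX1-high cells, and the smaller groups have wider counting error.

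IRX2 was at 188 CPM in IRX1-high cells, against 47.3 CPM in HEY2-chosen, 21.6 CPM in NR2F2-chosen and 17.8 CPM in SHOX2-chosen cells. ALCAM had the same order, with 79.7 CPM in IRX1-high cells against 37.1, 28.8 and 19.8 CPM. IRX4 was at 123 CPM in IRX1-high cells and 128 CPM in HEY2-chosen cells, but at 51.8 CPM in NR2F2-chosen and 34.8 CPM in SHOX2-chosen cells. TBX3 was at 41.5 CPM in IRX1-high cells, above the 20.9 CPM of HEY2-chosen cells and below the 58.6 CPM of NR2F2-chosen cells. KCNJ3 was at 10.8 CPM in IRX1-high cells and 9.54 CPM in NR2F2-chosen cells, a ratio of 1.13 (0.94 to 1.36), and at 2.76 CPM in HEY2-chosen cells.

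NPPA, an atrial and trabecular peptide, was at 277 CPM in IRX1-high cells, against 116 CPM in HEY2-chosen, 1477 CPM in NR2F2-chosen and 1106 CPM in SHOX2-chosen cells. HCN4 was at 45.8 CPM in IRX1-high cells and 51.3 CPM in HEY2-chosen cells, and at 120 CPM in NR2F2-chosen and 119 CPM in SHOX2-chosen cells. HAND1 was at 80.2 CPM in IRX1-high cells and 80.5 CPM in NR2F2-chosen cells, against 158 CPM in HEY2-chosen cells. PRDX1 was at 2274 CPM in IRX1-high cells, above the 653 CPM of HEY2-chosen and 1212 CPM of NR2F2-chosen cells, but below the 4586 CPM of SHOX2-chosen cells. High PRDX1 was therefore not particular to the IRX1-high cells.

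**Figure D5:**
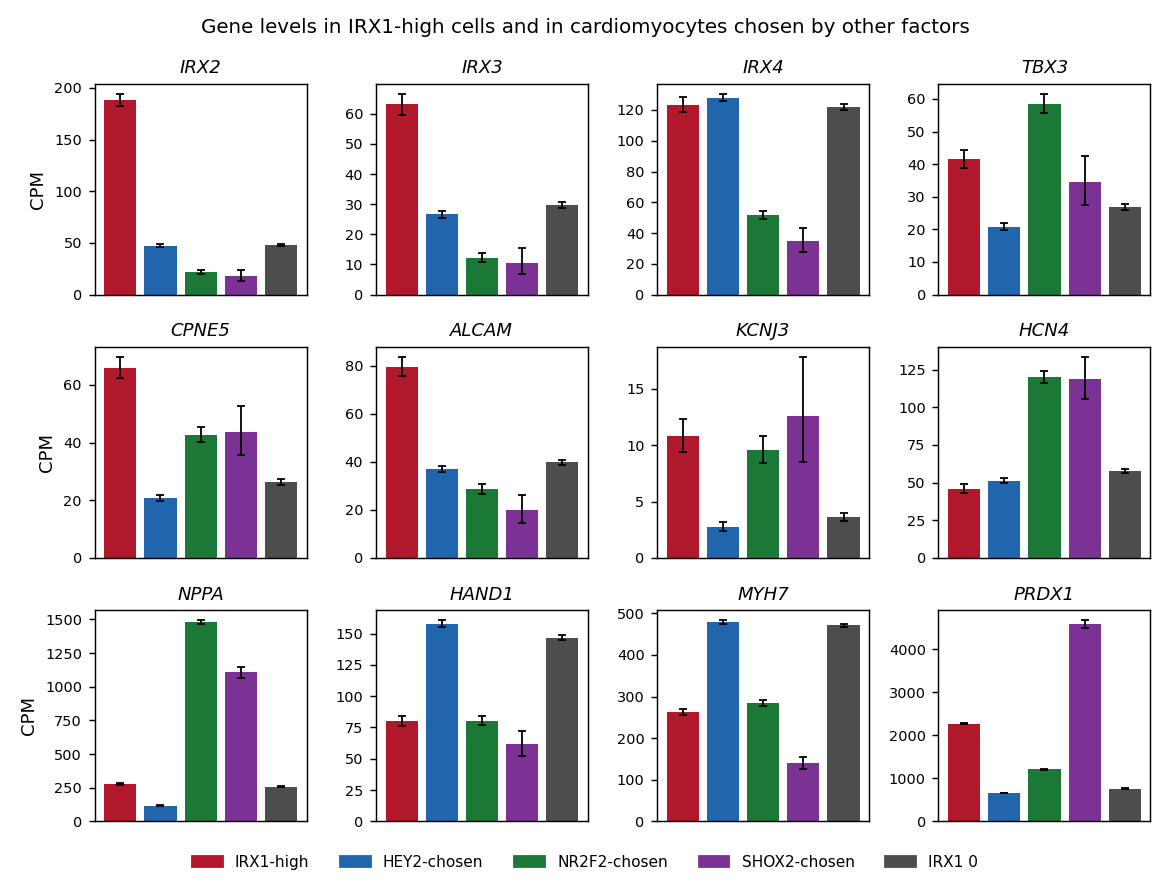
Levels of 12 genes in CPM (vertical axes from 0) in IRX1-high cells and in non-cycling cardiomyocytes chosen by HEY2, NR2F2 or SHOX2, with IRX1 0 cells last. Bars are CPM of summed UMIs and lines 95% Poisson intervals. IRX2, IRX3 and ALCAM are highest in IRX1-high cells, NPPA and HCN4 are higher in NR2F2-chosen and SHOX2-chosen cells, and PRDX1 is highest in SHOX2-chosen cells.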

How the data were processed

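Gene UMIs and hashtag UMIs were measured in 1 pool of thawed H9-derived cardiomyocytes. The authors deposited 1 matrix of raw counts with 36601 genes and 13 hashtags for 24038 barcodes, made with Cell Ranger 4.0.0 per the file headers, on hg38 per the submitters' processing notes. For aligner settings, strand and annotation nothing is stated. The counts sum to 311110726 gene UMIs and 9911316 hashtag UMIs. No barcode is listed more than once.

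The filters of 500 genes, 1000 gene UMIs and at most 25% of UMIs from mitochondrial genes removed 2415 barcodes. Kept cells held 1000 to 115854 UMIs, with a median of 12269. The rule then left 1381 cells, after 249 cells with 2 or more IRX1 UMIs were left out for NR2F2 and 127 as cycling. CPM were taken from UMIs summed within each group. Ratios have exact conditional binomial intervals, levels exact Poisson intervals and shares exact Clopper-Pearson intervals, all at 95%, and a gene at 0 was set against 3 counts over the group. A hashtag was assigned where 20 or more hashtag UMIs were present and 70% or more were its own, and 52.3% of kept barcodes had none. Scrublet (scanpy 1.11.5, expected rate 0.008 per 1000 barcodes) set its own threshold at 0.38 and marked 2508 cells (11.6%) against an expected 17.3%, and marked cells stayed in. Positions of genes are from GENCODE 29, where 34616 gene IDs matched.

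Named genes were the 7 markers, the Iroquois and T-box lists, up to 4 genes with the largest ratio in each other list, fixed chamber and channel genes, and outside the lists the 10 higher and 10 lower genes with the largest ratios among those reaching 50 CPM. The ranking outside the lists left out mitochondrially encoded, ribosomal protein, LINC-named, antisense and clone-named genes. PRDX2 to PRDX6 and other genes said to be so were named after their values were seen. Some genes that the lists hold are not reported here. The members, the 39 lists and the rule were chosen with earlier results of these data known. Python 3.11.15, numpy 2.4.6, scipy 1.17.1, pandas 2.3.3 and matplotlib 3.10.9 were used, with edgeR 4.0.16 in R 4.3.3 for the TMM scaling only. The calculation of ratios, intervals and calls was tried on simulated counts with known folds. Those counts held counting error only, so they do not check the reported ratios themselves. The alternatives were other filters, thresholds, weightings and scalings, thinning, doublets left out, and hashtags left out.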

Additional observations from a re-analysis of the deposited data

How the results depend on the processing

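IRX1-high cells were 8.15% of the non-cycling cardiomyocytes, with 160 genes higher and 92 lower. Their share was 8.81% with a stricter barcode filter, 7.43% with none, 17.1% with IRX1 at 1 UMI or more, 4.40% with 3 or more, 9.63% when NR2F2 was not used, 7.66% in barcodes of 1 hashtag only and 3.74% after thinning every cell to 5000 UMIs before the rule. Leaving out 1 hashtag at a time gave 7.51% to 8.57%, 149 to 169 higher and 85 to 98 lower genes. Leaving out Hashtag1, Hashtag2 and Hashtag7 together, chosen after seeing the data, gave 6.69%, 138 higher and 73 lower genes. The number of higher genes was 93 with IRX1 at 1 UMI or more, 443 after thinning, 914 with no minimum CPM, 61 at a minimum of 50 CPM and 63 at a ratio of 2. The number of lower genes was 39 with IRX1 at 1 UMI or more, 147 in barcodes of 1 hashtag, 332 after thinning, 487 with the mean of per-cell CPM, 1824 with no minimum CPM, 23 at a minimum of 50 CPM and 13 at a ratio of 2. Without doublets 186 genes were higher and 127 lower. TMM scaling gave 142 higher and 112 lower genes. The cause of these shifts was not tested, apart from the fewer or more genes that the minimum CPM and the ratio let in.

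Gene values under the alternatives were taken for 81 genes, not all of them named here. NRP2, PLXNA2, SLIT3, EFNA5, HOXB4, NEFM, NEFL, CXCL12, PTN, ENG and ANKRD1 were not among the 81. Of the 56 called genes among the 81, 36 stayed past 1.5 under all 27 alternatives with gene values. The rest included TBX3, MSX2, JAG1, WNT2 and PSAT1 among the higher genes, and CACNA1C, CCN2, DPYSL3, FOSB, HAND2, KCNN2, KDR, MT1X, MYH7, MYL2, SERPINA1, SYNE2, TMEM88 and TNFRSF19 among the lower. SERPINA1 turned direction, with a ratio of 1.89 when IRX1 was taken at 1 UMI or more and 1.10 in barcodes of 1 hashtag only. Each hashtag held cells of both groups, so the groups can be paired within hashtags. The ratios within 8 hashtags are such pairs and are given as values. No paired test was made, because the labels give no replicate numbers and do not say which sample a hashtag marks. With 10.8 CPM of KCNJ3 and fewer counts of IRX5, depth limits what can be said of genes near the floor.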

Other observations

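These genes were named after their values were seen. Genes of the HOXB cluster, homeobox factors that pattern the body axis, differed unevenly. HOXB4 was at 12.5 CPM in IRX1-high cells and 6.65 CPM in IRX1 0 cells (ratio 1.88, higher in 8 of 8 hashtags). It was measured only through its level in IRX1-high cells. HOXB3 had a ratio of 1.48, and the antisense HOXB-AS1 was at 117 CPM in IRX1-high cells and 47.3 CPM in IRX1 0 cells (ratio 2.47). HOXB-AS1 overlaps HOXB2 and HOXB3, so reads of these genes may not be told apart.

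The neurofilament genes NEFM and NEFL were at 44.3 and 85.3 CPM in IRX1-high cells, against 10.4 and 52.9 CPM in IRX1 0 cells (ratios 4.28 and 1.61), each higher in 7 of 8 hashtags. The chemokine gene CXCL12 and the growth factor gene PTN had ratios of 1.96 and 1.93, both higher in 8 of 8 hashtags. ENG, a TGF-beta co-receptor, was 2.73-fold lower in IRX1-high cells, at 12.9 CPM against 35.2 CPM in IRX1 0 cells, and ANKRD1, a stretch-responsive gene, was at 524 CPM in IRX1-high cells and 837 CPM in IRX1 0 cells.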
